A study of Homo sapiens with 12 samples.

Results

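The mRNAs of 9 enzymes that make serine and carry its one-carbon units were followed in HCT116 cells under OA and TN. PHGDH, PSAT1, PSPH, SHMT1, SHMT2, MTHFD1, MTHFD2, MTHFD1L and ALDH1L2 were taken by gene symbol from the count tables of both stressors, and each was found exactly once among the 60708 genes of each table. HCT116 is an established human colon cancer line, labelled wild type. OA (oligomycin A) blocks the mitochondrial ATP synthase, and TN (tunicamycin) blocks the first step of N-linked glycosylation in the ER. For each stressor, 3 libraries of treated cells, here called OA or TN, were set against 3 libraries of cells given DMSO alone, the solvent control, so that the 12 libraries formed 2 comparisons with no library in common. All cells were collected after 24 h in serum-containing medium, and the labels give 5 µg/mL for each stressor, whereas the study's methods state a higher dose of OA. The labels call the replicates of a condition biological replicates of this single line.

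Serine is made from a glycolytic intermediate in a short chain of reactions by PHGDH, PSAT1 and PSPH. Serine hydroxymethyltransferases then split serine into glycine and a one-carbon unit that is held on folate. The mitochondrial branch (SHMT2, MTHFD2, MTHFD1L, ALDH1L2) turns these units into formate or carbon dioxide, and the cytosolic branch (SHMT1, MTHFD1) uses them for purine, thymidylate and methionine synthesis. The serine genes and the mitochondrial branch are textbook targets of ATF4, the transcription factor of the integrated stress response.

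The promoters of the genes whose counts changed are shown first, with that of MTHFD1L, which carried motifs. Each is the RefSeq window from 250 bases before to 50 bases after an annotated start (GRCh38.p14), written 5′ to 3′ on the strand of the gene. Capitals mark CACGTG, the E-box bound by MYC, and TGATGNAA, the composite element bound by ATF4 with C/EBP proteins, both searched on both strands. RefSeq windows were matched for PHGDH, PSAT1, SHMT1, MTHFD1, MTHFD2 and MTHFD1L. PSPH, SHMT2 and ALDH1L2 had no matching entry.
PHGDH, chr1:119711684-119711983, plus strand: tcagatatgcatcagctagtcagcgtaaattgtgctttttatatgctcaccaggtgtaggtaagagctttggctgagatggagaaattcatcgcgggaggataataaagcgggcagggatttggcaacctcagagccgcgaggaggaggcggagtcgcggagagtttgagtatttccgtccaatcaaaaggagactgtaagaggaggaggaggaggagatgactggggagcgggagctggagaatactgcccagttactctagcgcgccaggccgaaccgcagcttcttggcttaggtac
PSAT1, chr9:78296875-78297174, plus strand: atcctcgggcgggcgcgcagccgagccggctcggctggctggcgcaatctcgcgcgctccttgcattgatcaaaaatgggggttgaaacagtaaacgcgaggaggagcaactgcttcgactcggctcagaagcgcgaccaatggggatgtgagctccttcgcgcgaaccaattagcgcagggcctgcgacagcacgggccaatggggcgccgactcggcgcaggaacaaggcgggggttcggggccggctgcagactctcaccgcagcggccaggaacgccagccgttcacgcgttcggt
SHMT1, chr17:18363501-18363800, minus strand: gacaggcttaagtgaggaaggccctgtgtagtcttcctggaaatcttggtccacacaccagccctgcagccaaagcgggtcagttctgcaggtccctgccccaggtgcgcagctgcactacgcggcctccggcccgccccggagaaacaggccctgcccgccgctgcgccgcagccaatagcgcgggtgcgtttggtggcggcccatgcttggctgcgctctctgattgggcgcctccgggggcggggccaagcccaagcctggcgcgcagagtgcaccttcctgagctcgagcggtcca
MTHFD1, chr14:64388103-64388402, plus strand: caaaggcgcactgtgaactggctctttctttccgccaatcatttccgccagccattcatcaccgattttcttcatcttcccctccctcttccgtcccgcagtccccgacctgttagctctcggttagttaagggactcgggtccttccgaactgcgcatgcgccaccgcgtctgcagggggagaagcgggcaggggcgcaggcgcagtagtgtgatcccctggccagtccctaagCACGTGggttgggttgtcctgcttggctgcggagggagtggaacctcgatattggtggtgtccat
MTHFD1L, chr6:150866331-150866390, plus strand, part of a window: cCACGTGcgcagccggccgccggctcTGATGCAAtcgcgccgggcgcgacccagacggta

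Of the 6 genes with a window, MTHFD1 held CACGTG with its first base 15 bases before the start, and MTHFD1L held both motifs. In MTHFD1L the motifs lay in 3 overlapping windows of neighbouring starts, at positions -154 (CACGTG) and -129 (TGATGCAA) from the start of the one that the printed bases come from. Another MTHFD1L window, around a start farther inside the gene, held neither. Among all 35116 windows of this length, 3.62% held TGATGNAA and 7.26% held CACGTG, so a match is a description of letters and not a binding site. No match says only that these letters are not in the window.

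Libraries held 9884124 to 24983573 counts. Of these, the 7SL RNA gene RN7SL1 took 6.02% to 8.11% in the OA controls and 8.4% to 17.9% in OA, highest in OA replicate 2. In the TN experiment its share was 6.23% to 7.5% in DMSO and 9.22% to 13.3% in TN. The TMM scaling factor was lowest in OA replicate 2 (0.732) and TN replicate 1 (0.796). The epithelial markers EPCAM, CDH1, KRT8, KRT18 and KRT19 were present in every library at 32.6 CPM or more, while VIL1 was at 3 counts or fewer. The 8 markers of leukocytes, endothelium, fibroblasts and hepatocytes summed to 1.15 to 12.7 CPM, led by COL1A1 except in TN replicate 3, where ALB was highest (37 counts, 3.18 CPM), and CD3E was at 0 counts in all libraries. In bulk RNA, fewer cells with a transcript and less of it per cell cannot be told apart. Levels are given as CPM, counts scaled to library size with TMM factors within the table of each stressor.

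PHGDH, the dehydrogenase that commits the glycolytic intermediate to serine, was higher with both stressors. The gene lies at chr1:119648411-119744218 (hg38, Gencode v44) on the plus strand. Its level was 116, 116 and 127 CPM in the DMSO libraries of OA and 265, 282 and 410 CPM in OA replicates 1 to 3. In the TN experiment it was 127, 102 and 107 CPM in DMSO and 443, 213 and 227 CPM in TN. Every treated library lay above every DMSO library, and the highest values belonged to OA replicate 3 and TN replicate 1. PHGDH was 2.67-fold higher with OA (log2 fold change 1.42, SE 0.25, Benjamini-Hochberg adjusted p = 0.0275 from edgeR) and 2.63-fold higher with TN (1.40, SE 0.32, adjusted p = 0.0431).

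PSAT1, the transaminase of the second step, showed the same direction with a wider spread in OA. It lies at chr9:78297125-78330093, plus strand. PSAT1 stood at 78.5, 65.5 and 70.9 CPM in the OA controls and at 242, 91.7 and 197 CPM in OA. In the TN experiment the values were 81.5, 77.3 and 74.9 CPM in DMSO and 172, 231 and 196 CPM in TN. After TMM scaling the groups did not overlap with either stressor, but OA replicate 2 (919 counts, scaling factor 0.732) lay closest to its controls. Per total count of the library, without this factor, OA replicate 2 lay below replicates 1 and 3 of its controls. The 2.57-fold difference with TN passed the test (log2 fold change 1.36, SE 0.20, adjusted p = 0.0106), and the 2.47-fold difference with OA did not (1.31, SE 0.36, adjusted p = 0.0765, both edgeR). With 1 library left out, PSAT1 in OA ran from 1.00 (without OA replicate 1, adjusted p = 0.0962) to 1.62 (without OA replicate 2, adjusted p = 0.00898, its only call there). In TN the PSAT1 call was lost in 4 of 6 such fits, those without replicate 2 or 3 of TN or of its controls (adjusted p = 0.0533 to 0.0957).

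PSPH, the phosphatase that releases serine, was higher in the treated cells of both experiments. It lies at chr7:56011051-56051604 on the minus strand. PSPH was measured at 56.2, 64.9 and 59.1 CPM in the OA controls against 91.7, 114 and 111 CPM in OA. In the TN experiment, DMSO libraries held 58.9, 51.1 and 53.8 CPM and TN libraries 136, 101 and 110 CPM. Treated and control libraries were again separate in both experiments. The fold was 2.12 with TN (log2 fold change 1.08, SE 0.21, adjusted p = 0.0245) and 1.76 with OA, where edgeR did not call it (0.81, SE 0.22, adjusted p = 0.0766). The pseudogene PSPHP1 had a row of its own with 127 to 312 counts, 11.6% to 25.6% of the PSPH count of the same library, so reads shared by the pair may be missing from either row. The 13 other pseudogene rows of the 9 enzymes held at most 5 counts.

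**Figure D1:**
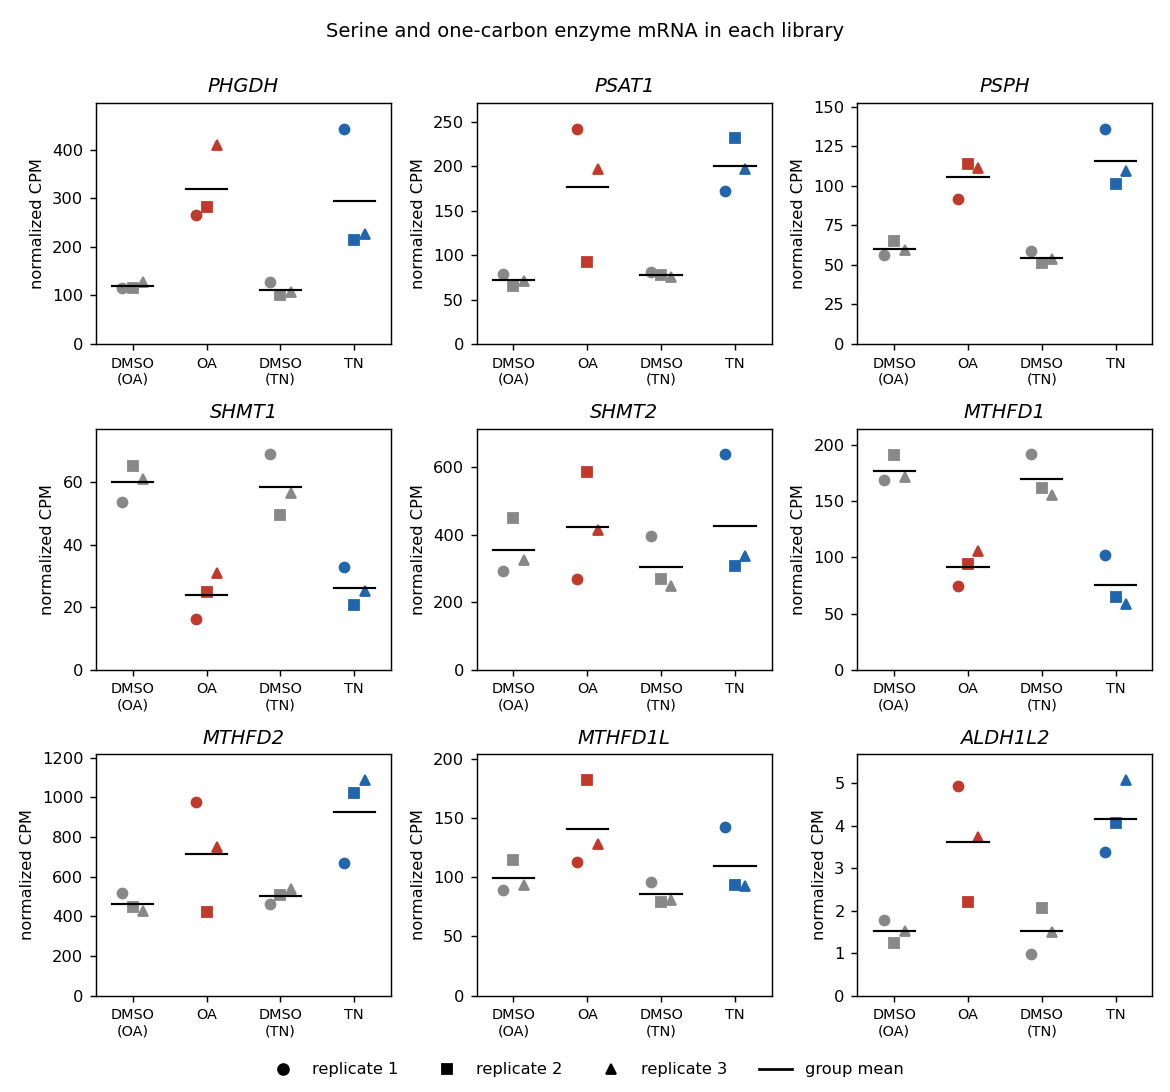
Normalized CPM (y axis, from 0) of each of the 9 enzyme mRNAs in the 12 libraries, by group (x axis), with circles, squares and triangles for replicates 1, 2 and 3 and a line for the group mean. PHGDH, PSAT1 and PSPH lie above their DMSO libraries in every treated library, SHMT1 and MTHFD1 lie below theirs, and SHMT2 and MTHFD1L overlap.

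The cytosolic enzymes were lower in the treated cells. SHMT1, the cytosolic serine hydroxymethyltransferase, is at chr17:18327860-18363563, minus strand. Its level was 53.8, 65.1 and 60.9 CPM in the OA controls and 16.4, 24.8 and 30.9 CPM in OA. In the TN experiment it was 68.8, 49.4 and 56.7 CPM in DMSO and 32.9, 20.8 and 25.1 CPM in TN. The highest treated library stayed below the lowest control in each experiment. SHMT1 fell 2.50-fold with OA (log2 fold change -1.32, SE 0.29, adjusted p = 0.0464) and 2.22-fold with TN (-1.15, SE 0.25, adjusted p = 0.0380, both edgeR).

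MTHFD1, the cytosolic enzyme that joins formate to folate and interconverts the folate forms, is at chr14:64388031-64463457, plus strand. MTHFD1 held 169, 191 and 171 CPM in the OA controls and 74.6, 94.5 and 106 CPM in OA. With TN, the control values of 192, 162 and 156 CPM stood against 102, 64.6 and 58.8 CPM. Again the groups were apart in both experiments. MTHFD1 fell 2.26-fold with TN (log2 fold change -1.18, SE 0.26, adjusted p = 0.0410), and its 1.93-fold lower level with OA missed the threshold (-0.95, SE 0.23, adjusted p = 0.0585 by edgeR). Exons of SHMT1 share 197 bases with SMCR8, and those of MTHFD1 share 178 bases with ZBTB25 and 1556 and 186 bases with the noncoding genes ENSG00000272909 and ENSG00000258824, all on the opposite strand. The strand setting of the counts is not stated, so reads of these stretches cannot be assigned to one gene of a pair, which also holds for 352 and 33 bases of SHMT2 (the noncoding gene ENSG00000276727 and NDUFA4L2), 1324 and 295 of MTHFD2 (SLC4A5 and ENSG00000264324) and 145 and 131 of ALDH1L2 (NOPCHAP1 and WASHC4).

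The mitochondrial enzymes lay higher on average with both stressors, with less separation between libraries. SHMT2, the mitochondrial serine hydroxymethyltransferase, is at chr12:57229573-57234935, plus strand. SHMT2 was at 292, 450 and 326 CPM in the OA controls and at 270, 587 and 416 CPM in OA, and at 396, 268 and 248 CPM in DMSO against 638, 307 and 337 CPM in TN. Treated and control libraries overlapped in both experiments, and replicate 2 of OA and replicate 1 of TN were the highest. Its log2 difference was 0.25 with OA (95% interval -0.49 to 1.00, adjusted p = 0.668) and 0.49 with TN (-0.30 to 1.28, adjusted p = 0.428), neither of which edgeR called. The sign with OA depended on the setting, since SHMT2 was at -0.011 after scaling to total counts and at -0.072 without OA replicate 2, and leaving out any other library gave 0.15 (without replicate 1 of the controls) to 0.49 (without replicate 2 of the controls), with 0.48 without OA replicate 1. With TN, SHMT2 was at 0.12 without TN replicate 1 and at 0.31 without replicate 3 of the controls. Each TN library held more SHMT2 than its same-numbered control. With the replicate number as a block, SHMT2 in TN was at 0.44 and was not called (adjusted p = 0.055, edgeR).

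MTHFD2, the mitochondrial dehydrogenase and cyclohydrolase, is at chr2:74186172-74217565, plus strand. It stood at 516, 447 and 429 CPM in the OA controls and at 975, 420 and 750 CPM in OA. In the TN experiment the values were 461, 505 and 539 CPM in DMSO and 667, 1021 and 1087 CPM in TN. After TMM scaling all TN libraries were above their controls, whereas OA replicate 2 was below all of its controls. Per total count of the library, TN replicate 1 lay below replicates 2 and 3 of its controls. The differences were 1.54-fold with OA (log2 fold change 0.62, SE 0.32, adjusted p = 0.280) and 1.84-fold with TN (0.88, SE 0.23, adjusted p = 0.0666). In OA the MTHFD2 value was 0.32 without OA replicate 1 (adjusted p = 0.483) and 0.90 without OA replicate 2, where edgeR called it (adjusted p = 0.0446). With the replicate number as a block, which the pairing of the TN libraries allows, edgeR called MTHFD2 in TN (log2 fold change 0.85, adjusted p = 0.00408).

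MTHFD1L, the mitochondrial synthetase that releases formate, is at chr6:150865679-151101887, plus strand. Its levels were 88.8, 115 and 93.8 CPM in the OA controls, 113, 182 and 128 CPM in OA, 96.3, 79.4 and 80.6 CPM in DMSO of the TN experiment and 143, 93.4 and 92.6 CPM in TN. After TMM scaling the groups overlapped in both experiments, and the differences of 0.50 (OA, adjusted p = 0.289) and 0.36 (TN, adjusted p = 0.417) on the log2 scale were not called by edgeR. Per total count of the library, the OA libraries lay above all of their controls. MTHFD1L was at 0.27 without OA replicate 2 and at 0.16 without TN replicate 1. Each TN library lay above its same-numbered control for MTHFD1L, and with the replicate block it was at 0.33 in TN and not called (adjusted p = 0.138, edgeR). ALDH1L2, the mitochondrial dehydrogenase that oxidizes formyl-folate to carbon dioxide, is at chr12:105019784-105107643, minus strand, and was scarce. It had 34, 31 and 30 counts in the OA controls and 67, 22 and 36 in OA, and 18, 36 and 20 counts in DMSO against 32, 44 and 59 in TN. After TMM scaling it ranged from 1.23 to 1.78 CPM in the OA controls and from 2.20 to 4.94 CPM in OA, and from 0.986 to 2.05 CPM in DMSO and 3.37 to 5.07 CPM in TN, with no overlap. Per total count of the library, OA replicate 2 lay below replicates 1 and 3 of its controls. The log2 fold change of ALDH1L2 was 1.27 with OA (SE 0.43, adjusted p = 0.126) and 1.46 with TN (SE 0.39, adjusted p = 0.0672), and with the replicate block it was called in TN (1.49, adjusted p = 0.0243, edgeR).

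Counted together, OA changed 2 of the 9 enzymes by edgeR, with PHGDH higher and SHMT1 lower, where 4.48% of the 14681 genes tested were called, 2.76% higher and 1.72% lower. TN changed 5 of the 9, with PHGDH, PSAT1 and PSPH higher and SHMT1 and MTHFD1 lower, where 6.99% of 14432 genes were called, 3.65% higher and 3.34% lower. The block raised the TN count to 7, with MTHFD2 and ALDH1L2 higher, at a background of 27.1%. All 9 passed the low-count filter in both experiments. After TMM scaling, treated libraries lay entirely above the controls for 4 enzymes with OA (PHGDH, PSAT1, PSPH, ALDH1L2) and for 5 with TN (these and MTHFD2), and entirely below for SHMT1 and MTHFD1 with each, where 16.3% (OA) and 15.9% (TN) of all genes tested lay entirely above and 15.5% and 16.8% entirely below, 31.8% and 32.6% in all. Per total count of the library, PSAT1 and ALDH1L2 overlapped in OA and MTHFD2 overlapped in TN, while MTHFD1L lay entirely above its controls in OA. The share over all genes was not counted for that scaling. The median log2 fold change of the 9 enzymes was 0.62 with OA and 0.88 with TN, beside -0.02 and -0.03 over all genes tested. DESeq2 called 5 enzymes in OA and 7 in TN, where 10.6% and 11.3% of all genes were called. A single edgeR fit of all 12 libraries called 5 in OA and 6 in TN at backgrounds of 10.9% and 8.73%. In OA, edgeR with DESeq2 size factors called 2 enzymes at a background of 4.58%. Total counts also called 2 in OA at 5.09%, but these were SHMT1 and MTHFD1 (adjusted p = 0.0350 and 0.0349), both lower. The PHGDH call was lost there (adjusted p = 0.0509). ACTB scaling called 3 in OA at 9.71%, PHGDH, PSAT1 and PSPH, all higher, and lost SHMT1 (adjusted p = 0.125). In TN, ACTB scaling called 4 at 9.83% and lost SHMT1 (adjusted p = 0.0628). Without any single OA control, or without OA replicate 3, no enzyme was called in OA, where 0.0200% to 0.0335% (a control left out) and 0.587% (OA replicate 3 left out) of all genes were called. Without OA replicate 2, 5 enzymes were called at 5.53%. In TN, leaving out replicate 1 gave 7 at 15.8%, leaving out replicate 1 of the controls gave 1 at 3.16%, and leaving out any other library gave 0 at 1.01% to 2.07%.

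**Figure D2:**
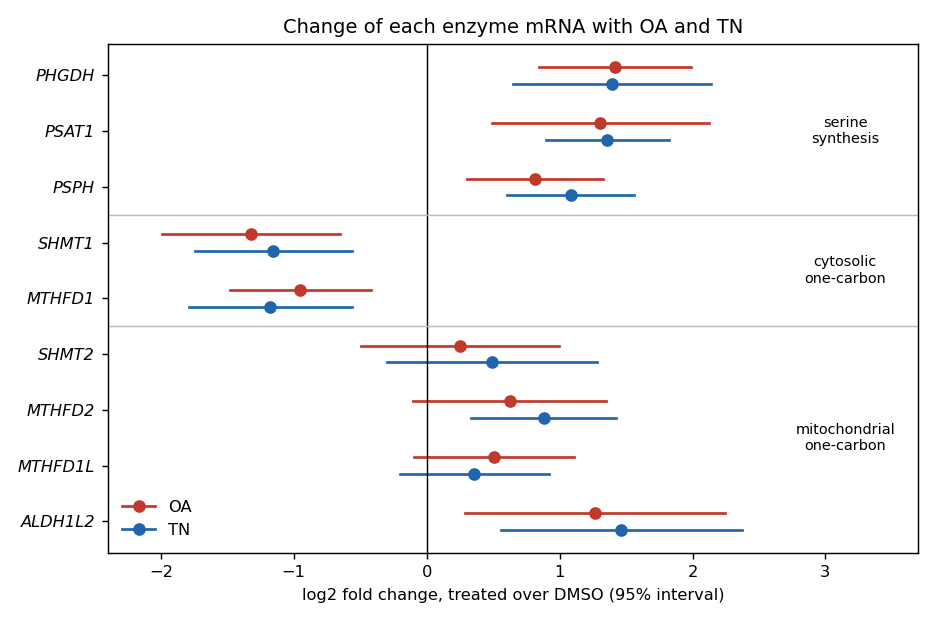
Log2 fold change of each enzyme mRNA (x axis, treated over DMSO) with its 95% interval from the edgeR fit, for OA in red and TN in blue, ordered by pathway step. PHGDH, PSAT1 and PSPH are right of 0, SHMT1 (-1.32 and -1.15) and MTHFD1 (-0.95 and -1.18) are left of 0, and the intervals of SHMT2 and MTHFD1L with both stressors and of MTHFD2 with OA include 0.

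Some of the enzymes with the most extreme GC content shared their order among the treated libraries. The transcripts of ALDH1L2, MTHFD2 and PSAT1 had the lowest GC content (41.6%, 42.2% and 42.5%), and within OA and within TN each was lowest in OA replicate 2 and in TN replicate 1. SHMT2 had the highest GC content (57.0%) and was highest in these same libraries. A smooth curve of count deviation against GC content, fitted over all genes of a library, stood at -0.55 (OA replicate 2) and -0.47 (TN replicate 1) on the log2 scale for the GC content of MTHFD2, and at 0.36 and 0.47 for that of SHMT2. For PHGDH (52.3% GC) and SHMT1 (52.6%) the curve stood at 0.32 in OA replicate 2 and at 0.32 and 0.33 in TN replicate 1, and both genes were highest in OA replicate 3 and in TN replicate 1. With this GC curve as an offset, edgeR called 7 enzymes in OA (PHGDH, PSAT1, PSPH, MTHFD2 and ALDH1L2 higher, SHMT1 and MTHFD1 lower) at a background of 16.1%, and also 7 in TN at 21.7%. With the offset and the block together, all 9 were called in TN, 7 of them higher, at a background of 37.2%. Directions of the 9 differences were the same as without the offset.

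Mitochondrial and cytosolic partners were then set against each other within each library, which removes the scaling between libraries. The count of SHMT2 was 5.42, 6.91 and 5.36 times that of SHMT1 in the OA controls and 16.5, 23.7 and 13.5 times in OA. In the TN experiment the ratio was 5.76, 5.43 and 4.38 in DMSO and 19.4, 14.8 and 13.4 in TN. All 6 treated libraries were above all 6 controls. On the log2 scale the ratio was 2.55 ± 0.21 in DMSO and 4.12 ± 0.41 in OA, and 2.37 ± 0.21 in DMSO and 3.97 ± 0.28 in TN (SD, n = 3 each), for which 0.1 is the smallest p that an exact permutation test of 3 against 3 can give. Over both stressors the shift was 1.59, a 3.00-fold rise (exact permutation within stressor, two-sided p = 0.005, the smallest possible, and 0.005 after Benjamini-Hochberg adjustment over the 2 ratios tested). SHMT1 fell in both experiments while the difference of SHMT2 was not called in either.

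MTHFD2 was counted 3.06, 2.34 and 2.51 times as often as MTHFD1 in the OA controls and 13.1, 4.45 and 7.08 times in OA. The ratio was 2.41, 3.12 and 3.46 in DMSO of the TN experiment and 6.54, 15.8 and 18.5 in TN. Here too every treated library exceeded every control, although OA replicate 2 and TN replicate 1 were the lowest of their groups. The log2 ratio was 1.39 ± 0.20 in DMSO and 2.89 ± 0.78 in OA, and 1.57 ± 0.27 in DMSO and 3.63 ± 0.81 in TN (SD, n = 3 each, exact permutation p = 0.1 for each). The shift over both was 1.79, or 3.45-fold (exact permutation p = 0.005, adjusted 0.005). After the fitted GC deviation was taken off each gene, an alternative chosen after seeing the data, the shifts were 1.58 for SHMT2 over SHMT1 and 2.03 for MTHFD2 over MTHFD1. MTHFD1L, which also shares a reaction with MTHFD1, was compared after its values were seen and is given without a test, and its log2 ratio to MTHFD1 was -0.84 ± 0.10 in DMSO and 0.60 ± 0.34 in OA, and -0.99 ± 0.04 in DMSO and 0.56 ± 0.09 in TN (SD, n = 3).

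**Figure D3:**
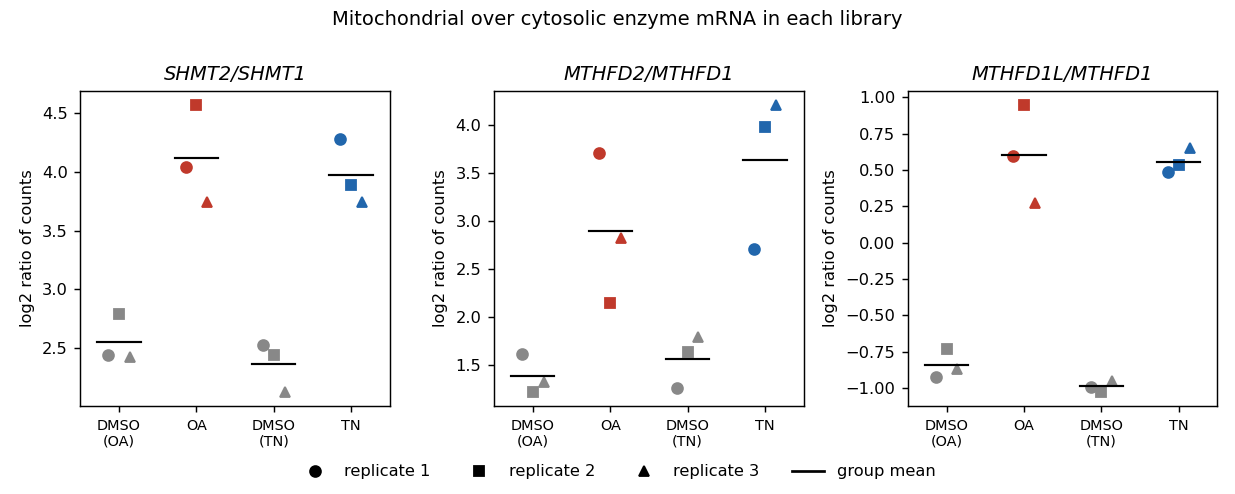
Log2 ratio of the counts of a mitochondrial enzyme to its cytosolic partner in each library (y axis), by group (x axis), with marker shapes for replicates and a line for the group mean. In all panels the treated libraries lie above all DMSO libraries, with shifts over both stressors of 1.59 for SHMT2/SHMT1 and 1.79 for MTHFD2/MTHFD1.

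Levels were compared between genes only per kilobase of the MANE Select transcript (Gencode v44). In the OA controls the order was SHMT2 (165 ± 38.5 CPM per kb), MTHFD2 (105 ± 10.5), PHGDH (64.1 ± 3.65), MTHFD1 (56.1 ± 3.89), PSAT1 (32.5 ± 2.96), PSPH (30.4 ± 2.22), MTHFD1L (28.8 ± 4.03), SHMT1 (23.7 ± 2.27) and ALDH1L2 (0.203 ± 0.0376, SD, n = 3). The means of the DMSO libraries of the TN experiment had the same order, but in replicate 3 of these controls MTHFD2 (123 CPM per kb) lay above SHMT2 (115). From PSAT1 down to SHMT1, each gene differed from the next by less than the sum of their SDs in the OA controls, and in the TN controls this held for SHMT2 and MTHFD2, for PHGDH and MTHFD1, and from PSPH down to SHMT1. With OA, PHGDH reached 171 ± 42.6 and PSAT1 80.3 ± 35 CPM per kb, above MTHFD1 at 29.1 ± 5.02, and with TN the values were 158 ± 69.2, 90.6 ± 13.6 and 23.8 ± 7.42 (SD, n = 3). Per kilobase, SHMT2 was 6.91 ± 1.03 times as abundant as SHMT1 in the OA controls and 21.0 ± 6.18 times in OA, and 6.08 ± 0.845 times in DMSO against 18.6 ± 3.67 times in TN. MTHFD1L was at 0.511 ± 0.0355 of MTHFD1 in the OA controls and at 1.41 ± 0.33 of it in OA, and at 0.460 ± 0.0121 against 1.35 ± 0.0821 in TN, so that the order of the pair was inverted with both stressors.

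The difference between the stressors was tested for each enzyme as a contrast over all 12 libraries. None of the 15429 genes tested was called by edgeR (0%), with 348 at an unadjusted p under 0.05. DESeq2 called none of 31212 genes, with 556 at an unadjusted p under 0.05. Both numbers are below the share of 0.05 that evenly spread p-values would give, so no call here does not show that the responses are equal. For the enzymes the unadjusted p ran from 0.206 (PSPH) to 0.956 (PHGDH), and every adjusted p was 1.00. The OA effect minus the TN effect on PHGDH was -0.02 on the log2 scale (95% interval -0.83 to 0.79), that on SHMT1 -0.24 (-1.02 to 0.54) and that on MTHFD2 -0.32 (-1.30 to 0.66). With 1 library left out, these differences ran from -0.20 to 0.45 for PHGDH, from -0.41 to 0.03 for SHMT1 and from -0.68 to -0.03 for MTHFD2.

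**Figure D4:**
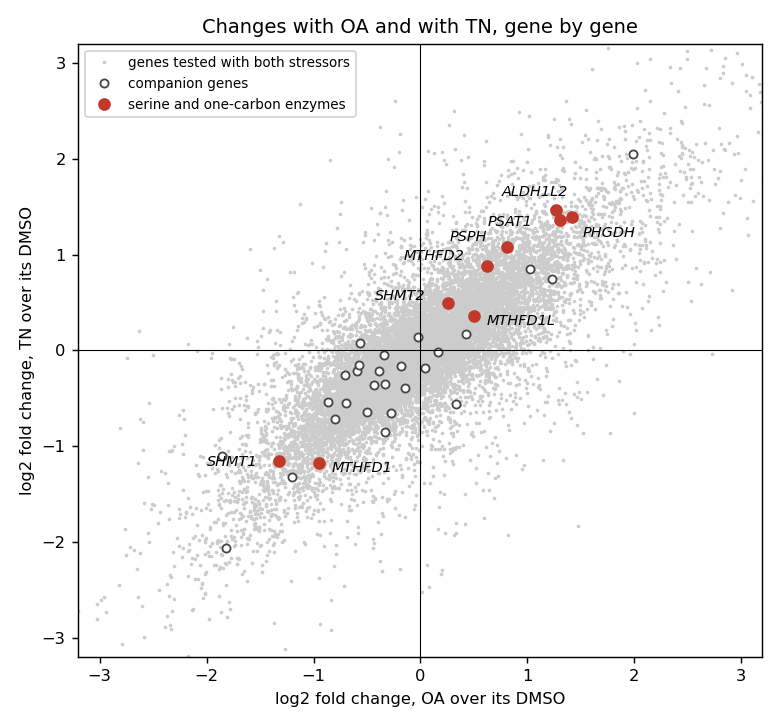
Log2 fold change with TN (y axis) against that with OA (x axis) for 14071 genes tested in both experiments (grey, 102 of them beyond the axes), with the 9 enzymes in red and companion genes other than those not reported as open circles. The enzymes other than SHMT1 and MTHFD1 lie at the upper right of the origin and these lie at its lower left.

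Companion genes of the pathway were read from a list of 34 genes, of which 31 could be tested in OA and 29 in TN. In OA, 1 was called higher and 1 lower (background 2.76% and 1.72%), and in TN 1 higher and 2 lower (3.65% and 3.34%). SLC1A4, a carrier of serine and other neutral amino acids, rose in both experiments, with 5.81 to 8.54 CPM in the OA controls against 21.4 to 32.5 CPM in OA (log2 fold change 1.99, SE 0.30, adjusted p = 0.0212) and 6.52 to 8.66 CPM in DMSO against 25.8 to 43.0 CPM in TN (2.05, SE 0.29, adjusted p = 0.00938, both edgeR). TYMS, which spends a one-carbon unit on thymidylate, fell in both as well, with 66.5 to 71.0 CPM in the OA controls against 14.8 to 23.4 CPM in OA (log2 fold change -1.82, SE 0.26, adjusted p = 0.0189) and 51.6 to 69.6 CPM in DMSO against 9.87 to 21.8 CPM in TN (-2.06, SE 0.35, adjusted p = 0.0173).

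The median log2 fold change of the companion genes was -0.34 with OA, with 9 of 31 above 0, and -0.26 with TN, with 7 of 29 above 0. The 3 genes of the methionine cycle were below 0 with both stressors, and so were the 3 tested genes of glycine cleavage with OA, none of them called. MTHFD2L, the close relative of MTHFD2, was at 0.17 with OA (adjusted p = 0.779) and -0.02 with TN (adjusted p = 0.981), and ALDH1L1, the cytosolic relative of ALDH1L2, was at 1.65 with OA (SE 0.61, adjusted p = 0.156, 9 to 42 counts per OA library) and too low to test in TN. With the replicate block, 12 companion genes were called in TN, 4 higher (SLC1A4, SLC1A5 and SDSL among them) and 8 lower (MTR, TYMS, GGH, SLC19A1, SLC46A1, ATIC and SFXN1 among them), at a background of 27.1%. SFXN1, the mitochondrial serine carrier, was at -1.20 with OA (adjusted p = 0.152) and -1.32 with TN (adjusted p = 0.0665) without the block.

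Of 3 known regulators of the pathway, ATF4 mRNA rose with both stressors, with 460 to 614 CPM in DMSO against 1126 to 1575 CPM in OA (log2 fold change 1.38, SE 0.25, adjusted p = 0.0280) and 438 to 501 CPM against 1128 to 1539 CPM in TN (1.46, SE 0.20, adjusted p = 0.00906, both edgeR). MYC fell with TN, with 199 to 257 CPM in DMSO against 78.7 to 122 CPM in TN (log2 fold change -1.19, SE 0.24, adjusted p = 0.0292), and was at -0.65 with OA (SE 0.27, adjusted p = 0.196). NFE2L2 was at 0.17 with OA and 0.18 with TN (adjusted p = 0.825 and 0.708). Any part of these genes in the changes of the 9 enzymes was not tested.

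**Figure D5:**
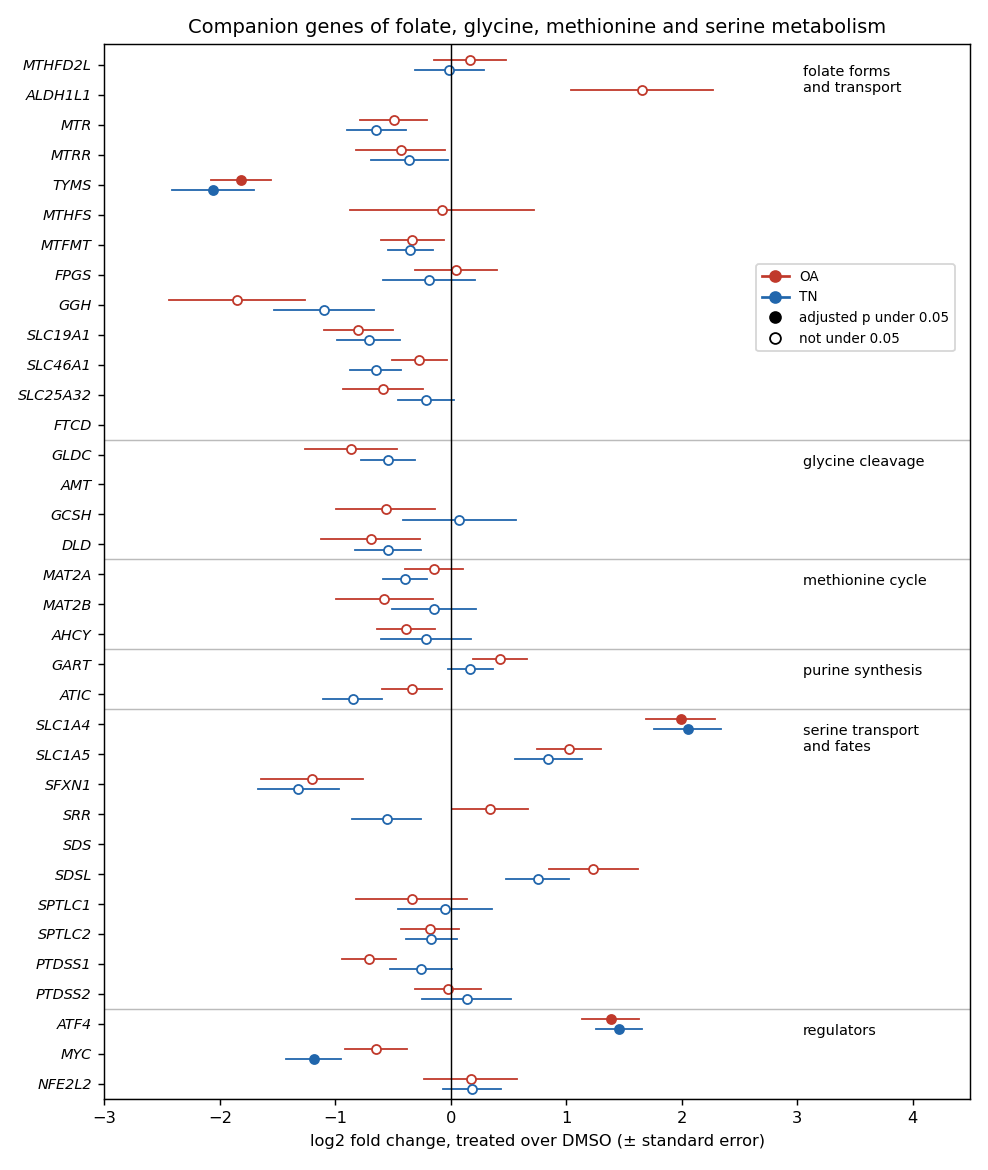
Log2 fold change (x axis, treated over DMSO, with its standard error) of companion genes and regulators by role, OA in red and TN in blue, filled where the adjusted p was under 0.05 and without a point where counts were too low. SLC1A4 (1.99 and 2.05) and ATF4 (1.38 and 1.46) are filled on the right with both stressors, and TYMS (-1.82 and -2.06) on the left.

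The genes with the most similar profile were found by the root mean square difference of log2 CPM, each set against its own DMSO mean, over the 12 libraries and 8986 genes. Nearest to the mean profile of the 9 enzymes were CAPN2 (0.0884), CTTN (0.0988), DDR1 (0.101), CLSTN1 (0.103) and ABCD4 (0.107). That mean averages enzymes that rose with enzymes that fell. The 5 genes had log2 fold changes of only 0.26 to 0.39 with OA and 0.43 to 0.62 with TN. Nearest to each serine enzyme were FHL2 for PHGDH (0.204), NBR1 for PSAT1 (0.250) and SLC39A14 for PSPH (0.128). For the cytosolic enzymes they were TRAF2 for SHMT1 (0.170) and NOP56 for MTHFD1 (0.116). For the mitochondrial enzymes they were ZNHIT1 for SHMT2 (0.0793), XPOT for MTHFD2 (0.138), RPL27 for MTHFD1L (0.0760) and ZNF75D for ALDH1L2 (0.203).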

How the data were processed

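Total RNA libraries of HCT116 cells were sequenced by the authors. Per the study's methods, reads were aligned to hg38 with STAR and counted per gene by its gene counts option with a Gencode annotation, and the deposited values are raw counts per gene, not normalized. The labels name a stranded total RNA kit, and the strand setting of the counts is not given in the sources used here. The authors also deposited, for each stressor, DESeq2 tables whose columns hold log2 fold changes, their errors, test statistics, p-values, adjusted p-values and a mean level per gene, and these were not used. Groups and replicate numbers came from the labels, and 0 columns of per-sample values were left unassigned. The labels name biological replicates of a single line without saying how they were grown apart, so p-values measure the spread between these samples.

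After filterByExpr and TMM scaling, each stressor was tested alone in edgeR 4.0.16 (limma 3.58.1, R 4.3.3) by its two-sided quasi-likelihood F test, with Benjamini-Hochberg adjustment over all genes tested (threshold 0.05). SEs were obtained by dividing the fitted log2 difference by the root of F. The difference between stressors was a contrast over 12 libraries. Ratios used log2 counts with 0.5 added and exact permutation of labels within stressor (400 relabellings). GC offsets were loess curves (span 0.3) over genes with a mean of at least 20 counts. Transcript places, lengths and overlaps came from Gencode v44. Counts of this size were also simulated with only 200 genes changed per experiment. There 31.9% of genes changed 4-fold and 0% of genes changed 2-fold were recovered for OA (94 and 96 genes), and 56.1% and 2.08% for TN (98 and 96 genes). In the data more genes were called (658 and 1009), and the adjustment depends on how many genes change. These shares therefore do not measure the recovery in the data.

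The enzymes, the companion list and the markers were chosen with earlier results of these data known. All 9 enzymes are named, with companion genes called in either comparison, MTHFD2L, ALDH1L1, TYMS and the regulators, and the genes of nearest profile among those with a mean of at least 10 CPM. Some companion genes are counted but not reported here by name. SFXN1 and the genes called with the block were named after their values were seen. Same-numbered TN and DMSO libraries deviated together across genes (r = 0.639, 0.409 and 0.427), so that the TN numbers pair the samples by the criterion of over 0.1 in every pair, although TN replicate 2 correlated as well with control replicate 3 (0.436) and TN replicate 3 with control replicate 2 (0.378). No 2 libraries of a group agreed within sampling noise (chi-square per gene at least 6.25). Alternatives were DESeq2 1.42.0, other scalings and filters, the replicate block, GC offsets, a joint fit and leaving out each library.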

Additional observations from a re-analysis of the deposited data

How the results depend on the processing

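The number of enzymes called in OA was 2, and became 5 with DESeq2, 4 without a filter, 5 with the replicate block (background 26.7%), 7 with the GC offset, 7 with both (background 25.7%), 5 in one fit of all 12 libraries, and 0 to 5 when a library was left out. In TN it was 5, became 9 with block and GC offset, and ranged from 0 to 7 when a library was left out. Companion calls in OA were 2, and became 6 with DESeq2, 4 with ACTB scaling, 7 without a filter, 12 with the block, 9 with the GC offset, 12 with both, 5 in the joint fit and 0 to 5 when a library was left out, where the share of all genes called was 4.48% and became 10.6%, 9.71%, 5.52%, 26.7%, 16.1%, 25.7%, 10.9% and 0.0200% to 7.57%. In TN they were 3, and became 5 with ACTB scaling, 5 without a filter, 12 with the block, 11 with the GC offset, 15 with both and 1 to 5 when a library was left out, where the share of all genes was 6.99% and became 9.83%, 5.85%, 27.1%, 21.7%, 37.2% and 1.01% to 15.8%. The contrast between stressors called 0 enzymes under every alternative run. In OA the same-numbered libraries correlated at 0.625, 0.539 and 0.0908. Replicates 1 and 2 thus deviated together with their controls, but replicate 3 missed the criterion of over 0.1, and control replicate 3 correlated better with OA replicate 1 (0.153). PSAT1, PSPH and MTHFD1 were called in OA with the block (adjusted p = 0.00682, 0.0100 and 0.00609, edgeR). These p-values rest on a pairing that replicate 3 did not meet, and the fit without the block did not call the 3 genes.

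Tested within 1 stressor, the SHMT2 to SHMT1 shift was 1.57 (OA) and 1.60 (TN) and the MTHFD2 to MTHFD1 shift 1.51 and 2.07, where the exact permutation p cannot go below 0.1. Leaving out 1 library gave 1.47 to 1.68 and 1.58 to 2.02, and the replicate block, as the mean of the 6 same-numbered differences, gave 1.59 and 1.79 by construction. Its sign-flip p is not given, since replicate 3 of OA did not meet the criterion for pairing. For SHMT2 in OA the log2 fold change was -0.011 with total counts, and -0.072 (without OA replicate 2) to 0.49 when a library was left out. No other enzyme changed sign within a stressor under any alternative run. Scaling to total counts moved the median of all genes to -0.23 (OA) and -0.18 (TN), and scaling to ACTB to 0.42 and 0.30. With ACTB scaling SHMT1 was not called in OA (log2 fold change -0.86, adjusted p = 0.125) or TN (-0.83, adjusted p = 0.0628). This scaling called 3 enzymes in OA, all higher, and 4 in TN. With total counts PHGDH was not called in OA (1.22, adjusted p = 0.0509, edgeR), and the 2 enzymes called were SHMT1 and MTHFD1, both lower. ALDH1L2 had only 22 to 67 counts per library in OA, and the part of counting error in its spread was not tested.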
